A study of Sorghum bicolor with 14 samples.

Results

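The loci described here are the transcribed places of the sorghum genome that the authors' development table lists without an annotation ID. A locus was taken when its annotation field held a dash and its level reached 1 FPKM (a fragment count scaled to transcript length and to library size) in at least 1 of the 4 stage columns. This rule gave 1168 loci of the 2003 without an ID (58.3%), in a table of 34755 loci. They are called unannotated loci below. The loci with an ID that reached the same minimum, 18082 of 32752 (55.2%), served for comparison and are called ID loci. The level of a locus helped to choose it, so a locus near the minimum had little room to lie above it in more than 1 stage.

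The study followed the middle stem internode of the grain sorghum variety M35-1, a post-rainy-season variety of India, through development and through progressive drought. The development samples were field-sown plants harvested at floral initiation, when the shoot apex turns from leaves to the inflorescence, at booting, when the panicle is still inside the flag leaf sheath, and during grain filling at the milky stage and at soft dough. Each stage had 2 libraries of total RNA made with a stranded kit, and the deposited table gives 1 pooled FPKM value per stage. The 3 drought groups, pot-grown plants harvested at booting at about 13%, 7% and 2% soil moisture, were not used, because 0 of the 32726 loci of the drought table lack an ID.

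A transcribed locus without an annotation ID arises when reads are assembled into gene models that match no model of the annotation used. Such models can be protein-coding genes that the annotation missed, long noncoding RNAs, transcribed repeats, extensions of neighbouring genes, or fragments of these. Long noncoding RNAs of plants are known for low levels, few exons and strong dependence on stage and tissue. All 1168 loci carry identifiers with the prefix MSTRG, which the StringTie assembler gives to merged gene models and which is not among the tools the submitters name.

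The 4 columns of the development table summed to between 647966 and 720661 FPKM. The read depth is unknown, and with 1 pooled value per stage no difference between stages has a replicate check. The library titles end in 1 at floral initiation and in 2 at the other stages, and the labels do not say what this digit marks, so it cannot be told apart from stage in comparisons with floral initiation. The table pairs its IDs with no gene names, so the tissue could not be checked against defining markers. No source used here names the genome build of the printed positions.

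The unannotated loci were mostly low. Their highest stage value had a median of 4.21 FPKM (quartiles 1.91 and 10.7), against 14.6 FPKM (quartiles 5.10 and 38.9) in ID loci. Of the unannotated loci, 523 (44.8%) reached 5 FPKM, 305 (26.1%) reached 10 FPKM and 31 (2.65%) reached 100 FPKM. Of the ID loci, 13638 (75.4%), 10856 (60%) and 1786 (9.88%) reached these levels. A minority of unannotated loci therefore lay in the range of well-transcribed annotated genes.

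They were also short. The table prints a genomic range for each locus, introns included, and 864 unannotated loci (74%) had a range that no other locus shared. The length of these ranges, end minus start, had a median of 2080.5 bp (quartiles 1062.5 and 3369.8 bp), against 3936 bp (quartiles 2508 and 5803 bp) for the 15068 ID loci with a range of their own. Ranges under 1000 bp made up 198 of these unannotated loci (22.9%) and 635 of these ID loci (4.21%). No unannotated locus was shorter than 500 bp, while ID loci went down to 111 bp.

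The extremes of length show how unlike each other the unannotated loci were. The shortest were MSTRG.23046 (chromosome 10, 12856978 to 12857478, 500 bp) and MSTRG.15991 (chromosome 6, 49139070 to 49139571, 501 bp). MSTRG.23046 had 0, 0.155, 0.760 and 1.16 FPKM from floral initiation to soft dough. MSTRG.15991 had 0.114, 8.15, 4.58 and 0.197 FPKM, so it was high in the 2 middle stages. The longest printed ranges belonged to loci that share one with ID loci, MSTRG.20276 (chromosome 9, 281758 to 715485, 433727 bp, a range printed for 44 loci) and MSTRG.17830 (chromosome 7, 16231701 to 16642555, 410854 bp), and such a range does not give the place of the single locus. Among ranges of their own the longest were MSTRG.17895 (chromosome 7, 26360842 to 26415377, 54535 bp), at 3.36, 9.15, 5.69 and 2.56 FPKM, and MSTRG.14312 (chromosome 5, 22013289 to 22053769, 40480 bp), at 2.64, 5.80, 6.12 and 1.99 FPKM. Both long loci were higher in the 2 middle stages than in the 2 outer ones.

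**Figure D1:**
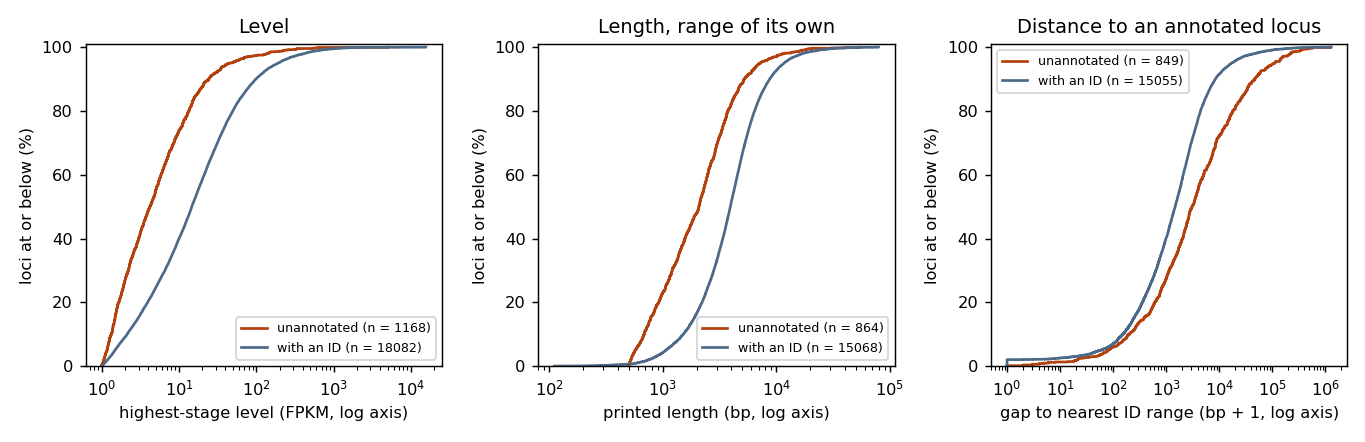
Cumulative share of unannotated loci and of ID loci by highest-stage level (FPKM), by length of a range of their own (bp) and by gap to the nearest range with an ID (bp plus 1), all on log axes. The unannotated curves lie to the left for level (median 4.21 against 14.6 FPKM) and for length (2080.5 against 3936 bp), and to the right for distance (3053 against 1479 bp).

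Unannotated loci were spread over the genome far more evenly than ID loci. On the 10 chromosomes they ranged between 1.503 per Mb on chromosome 10 and 2.00 per Mb on chromosome 5. ID loci ranged between 12.2 per Mb on chromosome 5 and 41.2 per Mb on chromosome 1. Chromosome 5, with the fewest ID loci per Mb, held 144 unannotated loci and 874 ID loci, or 16.5 unannotated loci per 100 ID loci. Chromosome 8 followed with 10.6 per 100, and chromosome 1 was lowest with 4.50 per 100, against 6.46 per 100 in the whole table. A further 22 unannotated loci (1.88%) lay on 18 unplaced sequences, as did 28 ID loci (0.155%).

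Within a chromosome the unannotated loci reached further into the middle. With each chromosome cut into 3 equal parts up to its last printed end, the middle part held 179 of 1146 unannotated loci (15.6%), against 697 of 18054 ID loci (3.86%). The share was higher for unannotated loci on each of the 10 chromosomes, between 11.1% on chromosome 4 and 22.1% on chromosome 6, where ID loci had 3.19% and 5.94%. With 5 equal parts, the outermost at both ends together held 676 unannotated loci (59%) and 14152 ID loci (78.4%). More unannotated loci thus lay near the chromosome ends than in the middle, as ID loci did to a larger extent.

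**Figure D2:**
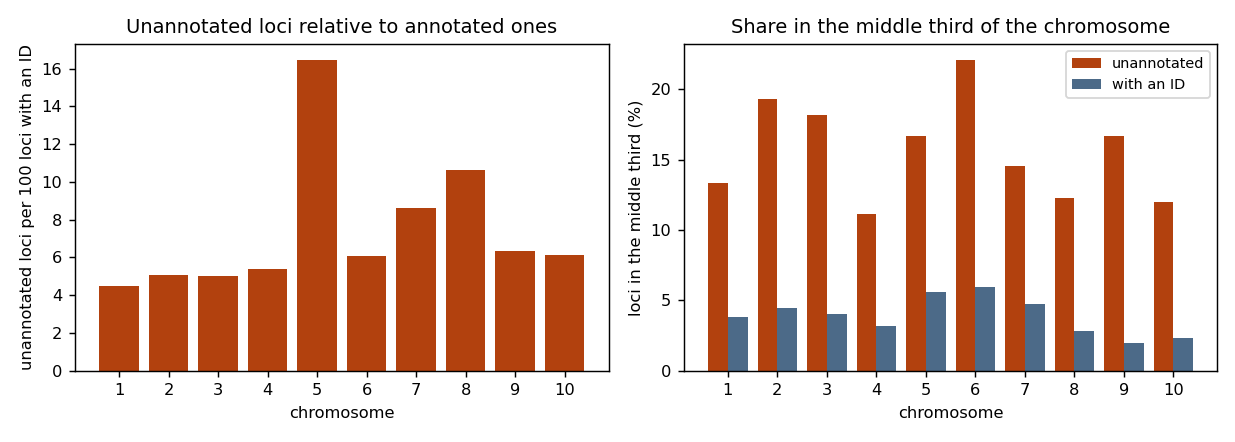
Unannotated loci per 100 ID loci on each chromosome (left) and the share of unannotated loci and of ID loci whose range lies in the middle part of a chromosome cut into 3, in percent (right). Chromosome 5 stands highest at 16.5 per 100, and the unannotated share in the middle part is above that of ID loci on every chromosome.

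The gap to the nearest range with an ID could be measured for 849 unannotated loci that have a range of their own. Its median was 3053 bp (quartiles 849 and 12583 bp), against 1479 bp (quartiles 487 and 3619 bp) between ID loci with a range of their own and the next ID range. Within 1000 bp of an ID range lay 231 unannotated loci (27.2%) and 6036 ID loci (40.1%). Within 10000 bp lay 611 (72%) and 13778 (91.5%). Unannotated loci thus lay farther from the next annotated locus than ID loci did, and more than 1 in 4 lay close to one.

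A further 251 unannotated loci (21.5%) shared their printed range with at least 1 ID locus, in 234 ranges with a median length of 8115 bp over these loci. The last 53 (4.54%) shared a range only with other unannotated loci, in 29 ranges. For 189 of the 251 the range held an ID locus at 1 FPKM or more. The unannotated locus was above the highest ID locus in 53 (28%) and had its highest stage in common with it in 69 (36.5%). Pearson's r of the 4 log2(FPKM + 1) values had a median of 0.44 there, as a description over 4 stages that share their libraries. Pairs of unannotated loci in 1 range were closer to each other: over 18 pairs the median r was 0.95, and 13 pairs (72.2%) peaked at the same stage, at levels that differed by a median factor of 4.69.

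Loci with a range of their own were compared with the nearest ID locus at 1 FPKM or more. Their highest stage was the same in 239 of 845 cases (28.3%), against 4145 of 15053 (27.5%) for an ID locus and its nearest ID locus. Among the 323 unannotated loci within 5000 bp of such an ID locus the share was 33.4%, against 27.9% among 9108 ID loci, and the median r was 0.32 against 0.11. Both measures were thus slightly higher for close pairs that include an unannotated locus.

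A gene list of RefSeq for the assembly Sorghum_bicolor_NCBIv3 was laid over the printed ranges to see which genes it names there. The positions fitted each other: on each chromosome between 63.5% and 69.2% of ID locus starts lay within 100 bp of a RefSeq gene start, and 0.975% to 2.73% did after a shift of 5000 bp. Of the 844 unannotated loci with a range of their own on a chromosome, 526 (62.3%) overlapped a RefSeq gene, against 14636 of 15040 such ID loci (97.3%). The overlapped gene was protein-coding for 258 loci (30.6%), a long noncoding RNA for 255 (30.2%), a pseudogene for 10 and a tRNA for 3. Long noncoding RNA genes were overlapped by 407 of the ID loci (2.71%). Overlap was read without strand, since the list gives none.

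The 318 unannotated loci (37.7%) with no RefSeq gene at their place were shorter and lower than the others. Their median length was 1152 bp and their median highest level 2.55 FPKM, and 30.8% of them reached 1 FPKM in all 4 stages. Loci over a long noncoding RNA gene had a median of 2567 bp and 5.79 FPKM, with 64.7% at 1 FPKM or more in all stages. Loci over a protein-coding gene had 2631.5 bp, 5.39 FPKM and 62.8%. The coding and noncoding classes were thus nearly alike in length, level and persistence, and both differed from the loci at places without a RefSeq gene.

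Unannotated loci seldom lay in clusters. Ranges less than 10 kb apart were joined, and a group of 3 or more distinct ranges was called a cluster. By this rule 2 clusters held 7 unannotated loci (0.599%), while 2112 clusters held 11493 ID loci (63.6%); the lists differ in size and density, and no comparison at matched density was made. The median gap between an unannotated locus and the nearest other one was 145757 bp (quartiles 45689 and 331200 bp). With gaps of 50 kb allowed, 28 clusters held 94 loci, and with 2 kb there was none. Most unannotated loci thus had no other one nearby.

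The first cluster lay on chromosome 3 between 38335041 and 38411429, with 4 loci in 3 ranges. MSTRG.8665 had 13.5, 1.97, 1.83 and 8.15 FPKM from floral initiation to soft dough, and MSTRG.8676, in the same range, had 13.4, 0.940, 0.390 and 10.3 FPKM. Both were high in the first and the last stage. MSTRG.8681 had 2.79, 1.29, 0.898 and 1.71 FPKM, a weaker course of the same shape. MSTRG.8684 differed from its neighbours, with 0.0455, 1.49 and 0.634 FPKM and a listing at 0 at soft dough. The cluster on chromosome 5 between 61446532 and 61453635 held MSTRG.14634 and MSTRG.14635, with 2.55 and 2.08 FPKM at floral initiation and 0 listed at every later stage. The other locus, MSTRG.14636, stayed between 0.699 and 1.82 FPKM.

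The next groups had 2 distinct ranges and fell short of the cluster rule. On chromosome 5 between 12547478 and 12572029, MSTRG.14160 was the highest of 3 loci with 1.79 FPKM at floral initiation and 0.462 FPKM at soft dough. On the unplaced sequence super_16, MSTRG.24240 had 16.3, 0.984, 2.50 and 4.16 FPKM, and MSTRG.24239 in the same range had 1.76, 0.107, 0.671 and 0.535 FPKM, so both were lowest at booting. On chromosome 1 between 11107588 and 11118406, MSTRG.1121 reached 4.62 FPKM at booting and was under 1 FPKM elsewhere, while its neighbour MSTRG.1119 stayed between 1.75 and 2.199 FPKM.

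The most crowded single range held 7 unannotated loci at chromosome 5, 45482148 to 45567318. All 7, MSTRG.14414 to MSTRG.14420, were highest at floral initiation, between 1.20 and 14.4 FPKM, and lowest at booting, at 1.21 FPKM or less. MSTRG.14414 had 14.4, 1.21, 8.37 and 7.93 FPKM. The 7 loci share a printed range of 85170 bp and may share reads, so they are not taken as 7 independent observations. This range was chosen after its values were seen.

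The summed level of the unannotated loci was 12882, 12973, 11064 and 15239 FPKM from floral initiation to soft dough, or 1.99%, 1.8001%, 1.58% and 2.33% of the columns. Most of the higher share at soft dough came from 1 locus: without the highest locus the shares were 1.62%, 1.58%, 1.44% and 1.56%. The 10 highest loci held between 22.4% of the summed level at the milky stage and 45.3% at soft dough. The median level per stage was 2.59, 2.28, 1.99 and 2.26 FPKM, beside 9.86, 9.66, 9.06 and 9.69 FPKM in ID loci. As a whole the unannotated loci were slightly lower at the milky stage, as were the ID loci. In whole internodes, fewer cells of a type and less RNA per cell cannot be told apart.

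The highest locus was MSTRG.20299 (chromosome 9, 1187763 to 1188696), with 2399.8, 1646, 1049 and 5119 FPKM. It lay over the RefSeq protein-coding gene LOC8068677, 2463 bp from the nearest ID range, and led the unannotated loci in every stage. MSTRG.5932 (chromosome 2, 63339839 to 63351143, a range shared with an ID locus) had 382, 665, 143 and 72.8 FPKM and so was high in the 2 early stages. MSTRG.22462 (chromosome 10, 2798504 to 2803386) had 179, 321, 568 and 373 FPKM, with its peak at the milky stage. MSTRG.16065 (chromosome 6, 49830492 to 49832768), over the protein-coding LOC8075881, was steady at 246, 335, 336 and 324 FPKM. MSTRG.19427 (chromosome 8, 15298415 to 15300054, a shared range) was high at both ends of the course, with 275, 22.4, 33.8 and 531 FPKM.

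One locus of the highest group was seen at a single stage. MSTRG.23517 (chromosome 10, 52122843 to 52228422, a range of 105579 bp shared with ID loci) had 607 FPKM at floral initiation and was listed at 0 in the 3 later stages. An exact 0 in a table without counts can be a failed estimate, so no fold is given against it.

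Fewer unannotated loci than ID loci were present throughout. At 1 FPKM or more in all 4 stages were 604 unannotated loci (51.7%), against 14476 ID loci (80.1%), and at that level in 1 stage alone were 236 (20.2%), against 1177 (6.51%). Level moved with this difference. Among loci of 1 to 2 FPKM with a range of their own the share seen in 1 stage alone was 54.5% of unannotated loci, against 52.2% of ID loci. It was 17.0% against 10.1% at 2 to 5 FPKM, 6.41% against 1.88% at 5 to 10 FPKM, and 1.82% against 0.305% from 10 FPKM up. At the lowest level the classes were thus close, and at higher levels unannotated loci were limited to 1 stage more often.

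Stages were compared in pairs. A locus entered a comparison when it had 1 FPKM or more in at least 1 of the 2 columns, and it was called when log2(FPKM + 1) differed by 1 or more. The added 1 FPKM understates the change of low loci. Across all loci of the table, called shares are given as the background beside each count.

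At booting against floral initiation, 93 of 1008 unannotated loci were called higher and 117 lower, 20.8% in all, where the background over all loci was 9.74 percent (5.6 percent higher and 4.14 percent lower). The median log2 difference was −0.03, beside 0.03 in ID loci. MSTRG.8059 (chromosome 3, 8315697 to 8316318) had 0.998, 328, 41.9 and 0.688 FPKM from floral initiation to soft dough and was called higher, with a log2 difference of 7.37. MSTRG.9960 (chromosome 3, 65897779 to 65900812) had 63.7 FPKM at booting and under 0.02 FPKM in each other stage, a log2 difference of 6.00. Both were thus nearly confined to booting or to booting and the milky stage. MSTRG.22441 (chromosome 10, 2564845 to 2565797) was called lower by a log2 difference of −5.29, with 39.0, 0.0215, 38.5 and 35.6 FPKM, and MSTRG.23517 was the other of the largest falls.

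At the milky stage against booting, 88 of 978 unannotated loci were called higher and 121 lower, 21.4% in all, where the background was 24.1 percent (10 percent higher and 14 percent lower). The median log2 difference was −0.06, beside −0.02 in ID loci. MSTRG.13982 (chromosome 5, 6299527 to 6301885), over the long noncoding RNA gene LOC8079720, had 23.3, 0.0940, 54.6 and 69.3 FPKM, so that booting was a gap in an otherwise high course. Its log2 difference was 5.67, and that of MSTRG.22441 was 5.27. MSTRG.9960 was called lower by −6.01. MSTRG.9961, its neighbour at 65901168 to 65903617 on chromosome 3, had 27.1 FPKM at booting, 5.83 FPKM at soft dough and listings at 0 in the other 2 stages.

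At soft dough against the milky stage, 126 of 986 unannotated loci were called higher and 78 lower, 20.7% in all, where the background was 11.8 percent (7.55 percent higher and 4.27 percent lower). The median log2 difference was 0.04, beside −0.02 in ID loci. MSTRG.296 (chromosome 1, 2727787 to 2730555), over the long noncoding RNA gene LOC110431855, had 32.9, 0.0289, 0.0285 and 24.1 FPKM. MSTRG.17916 (chromosome 7, 37722730 to 37725986), with no RefSeq gene at its place, had 14.9, 0.00914, 0.00587 and 14.8 FPKM. Both were high again at soft dough after 2 stages under 0.1 FPKM, with log2 differences of 4.61 and 3.97 against the milky stage. MSTRG.8059 was called lower by −4.67, and MSTRG.19835 (chromosome 8, 56470317 to 56474560, a shared range), with 13.5, 149, 47.3 and 1.52 FPKM, by −4.26.

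At soft dough against floral initiation, the ends of the course, 152 of 1046 unannotated loci were called higher and 154 lower, 29.3% in all, where the background was 28.7 percent (14.7 percent higher and 14 percent lower). The median log2 difference was −0.08, beside 0.03 in ID loci. MSTRG.19066 (chromosome 8, 2828288 to 2829479) had 0.493, 1.31, 3.28 and 34.3 FPKM, a gain at every step with a log2 difference of 4.56. MSTRG.2046 (chromosome 1, 51802624 to 51803509) had 0.0574, 6.12, 18.8 and 20.5 FPKM, a difference of 4.34. MSTRG.4191 (chromosome 1, 80445351 to 80446888, a shared range) had 48.5, 8.93 and 0.839 FPKM and a listing at 0 at soft dough. MSTRG.23517 was again among the largest falls.

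The called share was thus near the background between the milky stage and booting and between the ends of the course, and above it in the other 2 comparisons. The excess was also read by level. With ranges of their own and a higher column of 1 to 2, 2 to 5, 5 to 10 and 10 FPKM or more, 16.8%, 25%, 22.7% and 17.9% of unannotated loci were called at booting against floral initiation, against 5.33%, 12.2%, 9.83% and 8.82% of ID loci. At soft dough against the milky stage these shares were 13.2%, 24.5%, 25.9% and 20.1%, against 6.58%, 12.9%, 13.2% and 11.6%. The excess was thus seen at every level in both comparisons.

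Length moved with the excess. At booting against floral initiation, loci with a range of their own under 1000 bp were called in 35.2% of unannotated loci, against 34.6% of ID loci, and those of 1000 to 2000 bp in 19.4% against 20.3%. From 2000 to 4000 bp the shares were 16.9% against 8.93%, and from 4000 bp up 14.6% against 4.98%. When split by length, the excess was seen among the longer loci and not among those under 2000 bp.

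The other comparisons showed the same dependence on length. At soft dough against the milky stage the shares from the shortest to the longest class were 27.9%, 23.1%, 13.2% and 22.1% of unannotated loci, against 36.9%, 24.8%, 11.3% and 6.76% of ID loci. At the milky stage against booting they were 25.9%, 27.4%, 17.1% and 22.0%, against 41.4%, 39.2%, 26.0% and 18.5%. At soft dough against floral initiation they were 33.3%, 34.4%, 26.4% and 26.7%, against 54.7%, 47.9%, 31.2% and 20.9%. Below 4000 bp the unannotated loci were called less often than ID loci in the last 2 of these, and from 4000 bp up they were called more often in all 4 comparisons. Under 1000 bp the median highest level was 2.36 FPKM in unannotated loci, against 8.13 FPKM in ID loci, and the part of level and length together in the called shares was not tested.

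**Figure D3:**
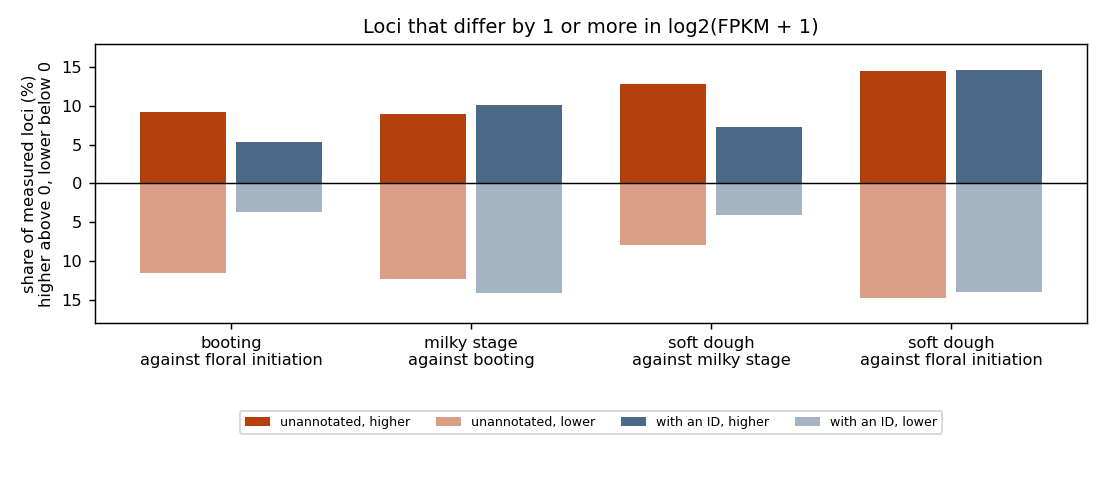
Share of unannotated loci and of ID loci called higher (above 0) and lower (below 0) in each comparison of 2 stages, in percent of the loci that entered it. In total 20.8%, 21.4%, 20.7% and 29.3% of unannotated loci were called, and the gap to the ID loci is widest at booting against floral initiation.

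Over the 4 stages, 607 unannotated loci (52.0%) spanned 1 log2 unit or more between their lowest and highest stage, against 8475 ID loci (46.9%). Of these 607, floral initiation was the highest stage in 190 (31.3%), booting in 145 (23.9%), the milky stage in 120 (19.8%) and soft dough in 152 (25.04%). The ID loci peaked at these stages in 25.7%, 25.4%, 20.5% and 28.3%. Floral initiation was thus the most frequent peak of unannotated loci, and soft dough that of ID loci. Floral initiation was also the most frequent lowest stage of the 607, in 176 (29.0%), beside 148 at booting, 150 at the milky stage and 133 at soft dough. With a pseudocount of 5 FPKM the order changed, since 54 unannotated loci then peaked at soft dough and 49 at floral initiation.

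Courses that divide the stages into pairs were counted where both stages of 1 pair lay at least 1 log2 unit above both of the other. Both early stages lay above both late ones in 37 unannotated loci (3.17%), where the background was 6.05 percent, with median values of 8.19, 6.98, 0.575 and 0.629 FPKM. Both late stages lay above both early ones in 24 (2.05%; background 4.54 percent), with medians of 1.97, 1.71, 10.6 and 8.88 FPKM. Both courses were thus smaller shares of unannotated loci than of the whole table. Late above early was a smaller share in each length class of own ranges. It was found in 2.02%, 2.76%, 2.71% and 0.649% of unannotated loci, against 10.4%, 7.40%, 4.97% and 3.69% of ID loci. These shares rest on 4, 6, 8 and 1 unannotated loci. Early above late was a smaller share in all but the longest class. From the shortest to the longest class of own ranges, early above late was found in 3.54%, 3.23%, 1.02% and 5.84% of unannotated loci, against 8.03%, 10.1%, 6.80% and 4.93% of ID loci, so that the order turned from 4000 bp up. With a pseudocount of 0.1 FPKM it was found in 7.45% of unannotated loci, against 8.95% of ID loci.

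Courses that turn back were also counted. Both outer stages lay above both middle ones in 26 unannotated loci (2.23%; background 0.597 percent), with medians of 10.7, 0.362, 0.355 and 6.92 FPKM. Both middle stages lay above both outer ones in 17 (1.46%; background 0.608 percent), with medians of 0.232, 7.26, 4.05 and 0.240 FPKM. Length bears on these: with ranges of their own, the outer course was found in 2.02%, 2.30%, 1.69% and 2.60% of unannotated loci from the shortest to the longest class, against 0.787%, 1.01%, 0.366% and 0.462% of ID loci. The middle course was found in 3.03% and 1.38% of unannotated loci in the 2 classes under 2000 bp, against 5.98% and 1.06% of ID loci, and in 0 of the longer unannotated loci. These shares rest on few unannotated loci, 4, 5, 5 and 4 for the outer course and 6 and 3 for the middle course. In these small counts, high outer stages were a larger share of unannotated loci at every length. High middle stages were a larger share only at 1000 to 2000 bp. Floral initiation and the milky stage lay above the other 2 in 4 loci (0.342%; background 0.0883 percent), and booting and soft dough in 7 (0.599%; background 0.416 percent). A gain at every step with a span of 1 log2 unit or more was found in 32 (2.74%; background 4.02 percent), and a loss at every step in 37 (3.17%; background 4.91 percent). Under 1000 bp a loss at every step was found in 5.56% of unannotated loci with their own range, against 5.35% of such ID loci, and with a pseudocount of 0.1 FPKM in 4.79% of all unannotated loci, against 5.75% of ID loci. Gains or losses at every step were a smaller share than in the table as a whole over all lengths at the pseudocount of 1 FPKM.

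Some loci were high in 1 stage and near 0 in another, and are called on and off loci here. Reaching 5 FPKM in 1 stage while lying under 0.1 FPKM in another was found in 43 of the 523 unannotated loci at 5 FPKM or more (8.22%), where the background over all loci was 1.52 percent, and in 172 of 13638 ID loci (1.26%). These limits were set after the values were seen. In 21 of the 43 every value under 0.1 FPKM was an exact 0, which can be a failed estimate. Counting only loci with a value above 0 and under 0.1 FPKM, 22 of 523 unannotated loci remained (4.21%), where the background was 1.06 percent, against 128 of 13638 ID loci (0.939%). With listings at 0 included, the shares in loci with a range of their own were 36 of 376 (9.57%) and 157 of 11482 (1.37%). This difference was seen in each class of level and length: 12.8% against 3.27% at 5 to 10 FPKM and 7.27% against 0.892% from 10 FPKM up. By length, from under 1000 bp to 4000 bp and more, it was 11.4%, 7.23%, 10.47% and 9.09% of unannotated loci, against 7.20%, 4.40%, 1.10% and 0.568% of ID loci. The gap was narrowest among loci under 2000 bp, where the shares rest on 5 of 44 and 6 of 83 unannotated loci. These splits by level and length were not made without the listings at 0.

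The stages that were off differed between loci. Of the 43, 6 were under 0.1 FPKM at booting and the milky stage, 5 at booting alone, 5 at floral initiation alone, 4 at the milky stage alone, and 4 at both grain-filling stages. A further 4 were seen at soft dough alone, 3 at floral initiation alone and 3 at the milky stage alone. In 28 of the 43 at least 1 stage was listed at exactly 0. MSTRG.15167 (chromosome 6, 1750921 to 1752070) and MSTRG.8574 (chromosome 3, 19434840 to 19442220) had 13.9 and 13.8 FPKM at soft dough and 0 listed in the 3 stages before it. MSTRG.2820 (chromosome 1, 66272574 to 66274693), over a long noncoding RNA gene, had 13.1 FPKM at the milky stage and 0 elsewhere. These 3 were chosen after their values were seen.

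**Figure D4:**
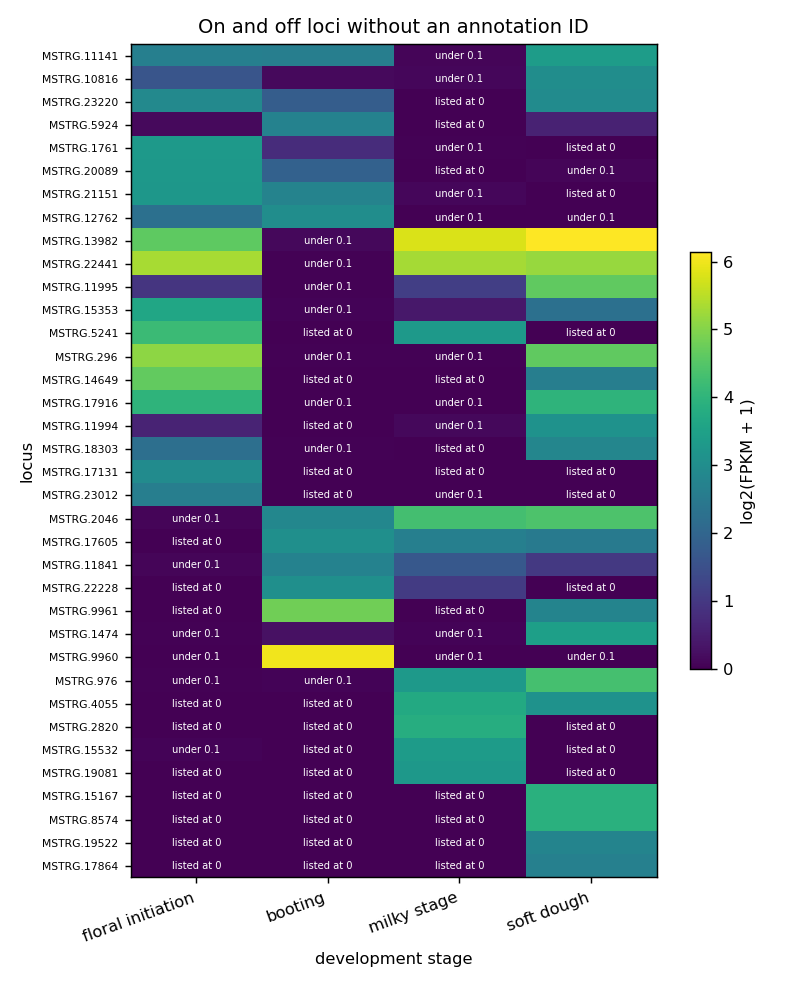
Level, as log2(FPKM + 1) by colour, of the 36 on and off loci with a range of their own at the 4 stages, grouped by the stages in which they were under 0.1 FPKM or listed at 0 (written in the cells). The off stages fall at every stage of development, and MSTRG.13982 and MSTRG.9960 reach the highest colours.

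The ID loci read on either side of the on and off loci mostly stayed on. Only ID loci that reached 1 FPKM in at least 1 stage were read, so a neighbour silent throughout was left out. A flank was thus not always the nearest ID locus. For MSTRG.9961 the nearest ID range lay 1117 bp away, and the flanks read lay 3893 and 11868 bp away. For 30 of the 36 loci with a range of their own, 44 distinct flanking ID loci at 1 FPKM or more could be read, 4 of them beside 2 on and off loci each, at a median distance of 9363 bp. They spanned a median of 1.21 log2 units over the stages (0.20 to 5.03), where the on and off loci, which were picked for a wide span, had a median of 3.35 (2.62 to 6.01). Of these 44, 3 were under 0.1 FPKM in the same stage as an unannotated neighbour. The matching share over all ID loci was not counted. Among ID loci at 5 FPKM or more, a higher minimum, 172 of 13638 (1.26%) were under 0.1 FPKM in some stage. Most ID loci at this higher minimum thus stayed at 0.1 FPKM or more in every stage. This share was not split by position. MSTRG.976 (chromosome 1, 9305116 to 9313624) had 0.0183, 0.0401, 9.04 and 18.9 FPKM between ID loci that kept 8.22 to 9.56 FPKM on its left and 6.27 to 10.7 FPKM on its right. This locus was chosen after its values were seen, and its left flank had the smallest span of all flanks (0.20 log2 units). Next to MSTRG.17916, Sobic.007G105700 began 278 bp away and had 8.15, 5.46, 5.95 and 6.91 FPKM. These neighbours did not share the gap of the unannotated locus.

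The 3 flanks that were off with their neighbour lay beside MSTRG.22441, MSTRG.14649 and MSTRG.11994. MSTRG.22441 lay 21 bp from Sobic.010G031800, which had 0.347, 0, 1.97 and 0.603 FPKM, and 5 bp from Sobic.010G031900, which had 2.11, 0.495, 19.4 and 47.7 FPKM. Both neighbours were lowest at booting, as was MSTRG.22441. MSTRG.14649 (chromosome 5, 61830529 to 61832065) had 24.4, 0, 0 and 5.13 FPKM, and Sobic.005G149600, 25588 bp away, had 2.19, 0, 0 and 0.0432 FPKM. MSTRG.11994 (chromosome 4, 50072105 to 50078160) had 0.537, 0, 0.0923 and 7.81 FPKM, and the locus with Sobic.004G157900, 768 bp away, had 21.0, 0.378, 0.0388 and 12.9 FPKM. Both neighbours were low in the middle stages, as were the unannotated loci. Beside MSTRG.9960, 504 bp away, the locus with Sobic.003G335501 was also highest at booting but stayed on in every stage, with 4.85, 23.2, 4.06 and 12.7 FPKM. Whether reads were divided between these close loci was not tested.

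**Figure D5:**
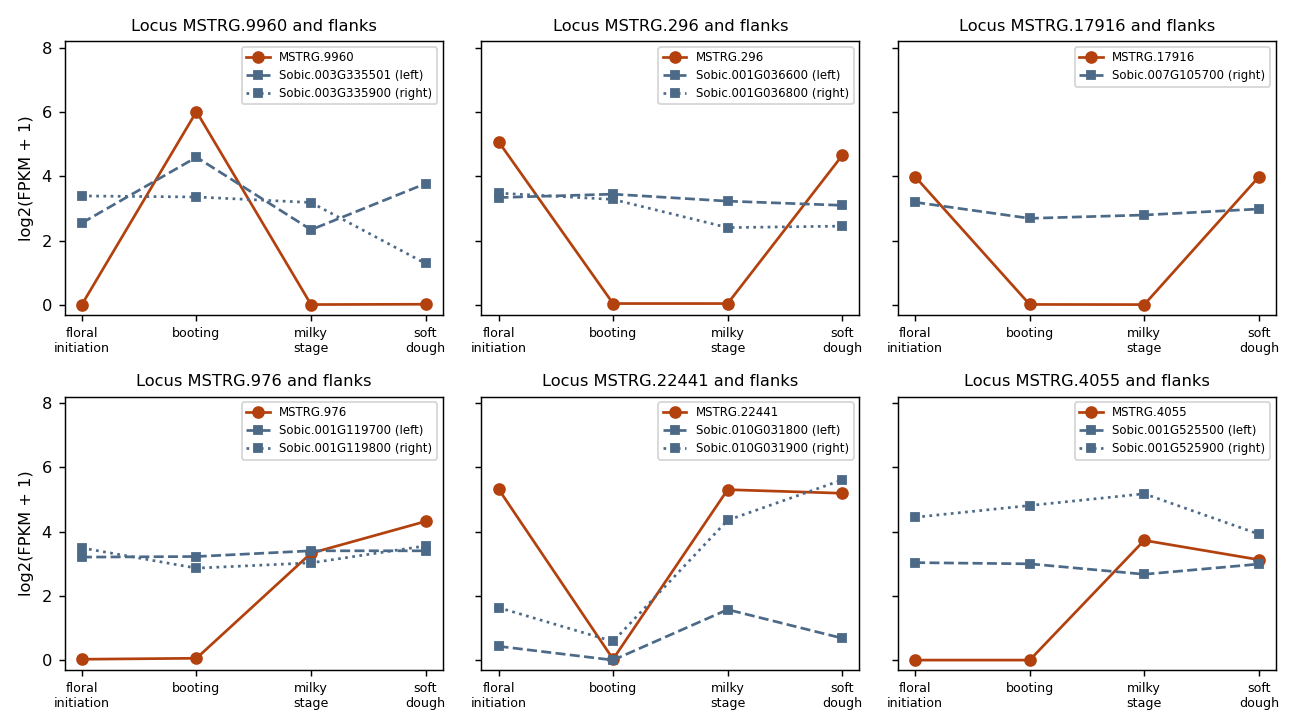
Level, as log2(FPKM + 1), of 6 on and off loci (circles, solid line) and of the ID loci measured beside them (squares, broken lines) over the 4 stages. MSTRG.17916 has a measured flank on its right only. MSTRG.296, MSTRG.17916, MSTRG.976 and MSTRG.4055 fall below 0.1 FPKM or are listed at 0 while the flanks shown stay on. The left flank of MSTRG.9960 is also highest at booting, and both flanks of MSTRG.22441 are also lowest at booting. MSTRG.976 and MSTRG.4055 were chosen after their values were seen.

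At the other end, 119 unannotated loci (10.2%) kept 10 FPKM or more in all stages. The matching share of ID loci was not counted. In at least 1 stage, 26.1% of unannotated loci and 60% of ID loci reached 10 FPKM. The steadiest was MSTRG.15205 (chromosome 6, 2900405 to 2904649), over the protein-coding LOC8066016, with 13.3, 12.2, 13.7 and 12.7 FPKM and a span of 0.16 log2 units. MSTRG.6724 (chromosome 2, 71304757 to 71309366, a shared range) had 23.4, 19.8, 19.9 and 19.97 FPKM, and MSTRG.19731 (chromosome 8, 53924103 to 53927099), over the long noncoding RNA gene LOC110429602, had 43.1, 41.6, 49.98 and 43.0 FPKM. These 3 loci had no stage that stood apart.

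Just inside the 1 FPKM minimum lay MSTRG.15243 and MSTRG.14798, each with 1.00 FPKM in its highest stage. Just outside lay MSTRG.23947 with 0.999 FPKM and MSTRG.10213 with 0.990 FPKM. Of the 2003 loci without an ID, 236 (11.8%) were listed at 0 in every stage, against 6430 of the 32752 loci with an ID (19.6%).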

How the data were processed

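The authors deposited 1 FPKM value per locus and stage, pooled over 2 libraries, per the file headers and labels. Per the submitters' processing notes the tools included HISAT2 2.0.5, Bowtie2 2.2.9, Cuffdiff and cutadapt 1.8.1, with no roles given. The genome build was not given in those sources. Pooled values leave no residual spread, so differences carry no p-value and no SD. FPKM depends on the length assigned to a locus and on the summed fragments of a library, and an FPKM of 0 can be a failed estimate.

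From these values log2(FPKM + 1) was computed with Python 3.11.15, numpy 2.4.6 and pandas 2.3.3. A call needed a difference of 1 and 1 FPKM in the higher column. Loci named are the 3 highest per stage, the 2 largest rises and falls per comparison at 5 FPKM or more, the 5 groups with the most ranges, the longest and shortest, the 3 steadiest at 10 FPKM or more, and those next to the minimum; others are marked in the text. The code of the call and cluster rules was checked on simulated data without noise, which does not show how often noise gives a call. The loci, lists and rules were chosen with earlier results of these data known, and the on and off limits, the splits of calls and courses by level and length, the flanks and the RefSeq comparison after the values were seen. RefSeq positions were used only to name genes at a place; no sequences were read. The 3 drought groups were left out. Alternatives were another pseudocount, other minimums, cluster distances and column scalings.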

Additional observations from a re-analysis of the deposited data

How the results depend on the processing

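No paired analysis was possible because the table holds 1 pooled column per stage, and for the same reason no library could be left out. Of 142 recomputed counts and medians, 89 stayed within 1.5 times the reported value and 53 did not. Of the 89, 8 came from dropping the 1 FPKM filter, which cannot change a call at a pseudocount of 1 FPKM. The 64 recomputed differences of named loci all kept their direction and stayed at 1 or more. These loci were picked as the largest rises and falls, so the settings used could hardly have changed this. With a pseudocount of 0.1 FPKM, which enlarges differences of low loci by construction, the milky stage against booting had 163 higher and 194 lower, soft dough had 132 lower against the milky stage and 234 lower against floral initiation, and the courses became 87 early, 61 late, 39 middle, 56 outer, 10 for floral initiation with the milky stage, 17 for booting with soft dough and 56 falling. With 5 FPKM, which shrinks them, booting against floral initiation had 31 higher and 28 lower, the milky stage against booting 25 and 33, soft dough against the milky stage 39 and 24, and soft dough against floral initiation 53 and 39. The peaks by stage were then 49, 51, 39 and 54, and the courses 15 early, 9 late, 3 middle, 8 outer, 1 for floral initiation with the milky stage, 2 for booting with soft dough, 18 rising and 13 falling. A minimum of 5 FPKM in the higher column, which admits fewer loci, gave 45 and 51, 45 and 69, 61 and 42, and 88 and 71 higher and lower in these comparisons. With 5 FPKM in at least 1 column there were 523 loci, 0 in clusters, peaks of 84, 78, 65 and 77 by stage, 2 loci high at floral initiation with the milky stage, 4 at booting with soft dough, 21 rising and 17 falling. With no minimum there were 2003 loci. Clusters held 0 loci at 2 kb, 94 at 50 kb and 3 where an ID range between loci broke a cluster. Rescaling the columns to the same sum moved the median difference of all loci at booting against floral initiation to −0.11, and that of unannotated loci to −0.15, with no count moved beyond 1.5 times. Without loci listed at 0 in either column, booting against floral initiation had 81 higher and 85 lower. The milky stage against booting then had 72 and 109, soft dough against the milky stage 95 and 64, and soft dough against floral initiation 124 and 113. ID loci were not recounted in this way. The split by level and length and the omission of loci listed at 0 were chosen after seeing the data. Depth is unknown; at 1 FPKM, values moved in about 68.3 to 70.0 steps per kb.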

Other observations

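Around MSTRG.22441 on chromosome 10, neighbouring loci differed at booting. Sobic.010G031500 (2553243 to 2554559) had 21.3, 0, 27.7 and 56.0 FPKM from floral initiation to soft dough, a gap at booting like that of MSTRG.22441. The locus with Sobic.010G032000 and Sobic.010G032100 (2573464 to 2576676) had 0.725, 28.9, 54.0 and 94.2 FPKM and so was on at booting. Sobic.010G032300 (2580407 to 2586599) stayed between 0.717 and 2.83 FPKM.

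Pairs of unannotated loci in 1 printed range differed widely in level. At chromosome 3, 13453442 to 13455632, MSTRG.8401 had 78.2, 145, 72.3 and 62.1 FPKM and MSTRG.8402 had 3.11, 5.15, 1.91 and 2.00 FPKM, with booting highest in both. At chromosome 10, 12038448 to 12040262, MSTRG.23019 had 6.52, 13.96, 28.0 and 40.4 FPKM and MSTRG.23018 had 0.569, 1.60, 6.23 and 6.37 FPKM, with a gain at every step in both. At chromosome 5, 1039163 to 1040322, MSTRG.13671 had 132, 213, 155 and 49.6 FPKM and MSTRG.13670 had 6.74, 14.7, 14.7 and 1.38 FPKM, both lowest at soft dough. These pairs were chosen after their values were seen, and loci of 1 range may share reads.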
